A study of Drosophila melanogaster with 4 samples.

Results

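JAK/STAT signalling was examined through 8 Drosophila genes, chosen by name: the ligand genes upd1 and upd2, the receptor genes dome and et, the kinase gene hop, the transcription factor gene Stat92E, and the negative regulators Socs36E and Ptp61F. A gene was represented by the probe sets that the platform annotation gives to that symbol alone, and the brightest of them over all arrays stood for it. This found 7 probe sets for 6 of the 8 genes, out of 18769 non-control probe sets and 11982 named genes on the array. hop and Socs36E were not analysed here, so the kinase step and the best known feedback gene are missing from the account. Messenger RNA came from pupal eye discs of Drosophila melanogaster kept at 29 °C and dissected some 40 h after pupariation. In the genotype called Yki below, the driver GMR-Gal4 was crossed to UAS-Yki, which overexpresses Yorkie, the transcriptional coactivator that Hippo signalling restrains. Control animals carried GMR-Gal4 alone, with no UAS transgene named, so both groups share the driver. GMR-Gal4 acts in the developing eye from the morphogenetic furrow backwards, and the labels do not say in which cells of these discs it was active. Each group had 2 samples, labelled as biological replicates, with 1 Affymetrix Drosophila Genome 2 array each. The number of animals behind each sample is not stated.

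In this pathway a secreted Unpaired ligand binds the receptor Domeless, which brings the Janus kinase Hopscotch to phosphorylate Stat92E, and Stat92E then enters the nucleus and activates target genes. Et, also called Latran or eye transformer, resembles Domeless but dampens its signalling, while SOCS proteins and the phosphatase Ptp61F limit the kinase step or remove phosphate. In the early eye disc Unpaired is known as a growth signal from the posterior midline, and the Hippo pathway is known in other fly tissues to restrain unpaired genes. The comparison of Yki with control discs asks which of these transcripts differ when Yorkie is raised.

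The arrays limit every value below, because there are 4 of them. The deposited intensities are linear and were scaled to a trimmed mean of about 500.01 on every array, and 43.7% to 47.5% of probe sets had an intensity below 64, here called dim. yki itself had intensities of 26417 and 26183 in Yki discs and 1285 and 1261 in control discs, a log2 difference of 4.35 (SE 0.22, limma adjusted p 0.0393). The brightest probe sets on the Yki arrays had 26641 and 27246, so yki lay near the top of the scale there and its difference may be understated. All 6 eye disc markers checked had a mean over the 4 arrays above the dim limit. Their differences had a median of -0.07, with 3 above 0 (so, ey and Optix) and 3 below (eya, gl and dac). The largest were those of dac, at -1.42 (SE 0.30, unadjusted limma p 0.00507, adjusted p 0.188), and eya, at -0.90 (SE 0.53, adjusted p 0.545). Their summed intensity was 7465 and 10329 in Yki discs, against 10977 and 12170 in control discs. Fat body genes, which are not eye disc markers, also gave signal, with a summed intensity over 4 measured genes of 24104 and 22848 in Yki discs, against 34712 and 24662 in control discs. In whole discs, fewer cells of a type and less RNA per cell cannot be told apart. Differences are given as Yki minus control on the log2(intensity + 16) scale, on which changes of dim probe sets come out too small, with the standard error of the limma fit.

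The ligand gene upd1 and the receptor-like gene et had lower intensities in Yki discs, and their groups did not overlap. Group means differed by 2.51-fold and 2.90-fold, on probe sets whose 4-array means are dim and for which no detection call was given, so these folds are imprecise. On the log2(intensity + 16) scale the fitted ratios of Yki to control were 0.510 and 0.526. The receptor gene dome had nearly equal means, and Stat92E and Ptp61F differed by small amounts. upd2 had very low intensities on 3 of the 4 arrays. None of the 6 genes (0) passed the test adjusted over all probe sets, where adjusted p-values ran from 0.342 to 0.997 (limma, Benjamini-Hochberg). Of all probe sets 0.0160% passed it. An unadjusted limma p under 0.05 was reached by 2 of the 6 genes, both with lower values in Yki discs, and by 6.31% of all probe sets in that direction. None of the 6 (0) reached it with higher values, against 6.86% of all probe sets.

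**Figure D1:**
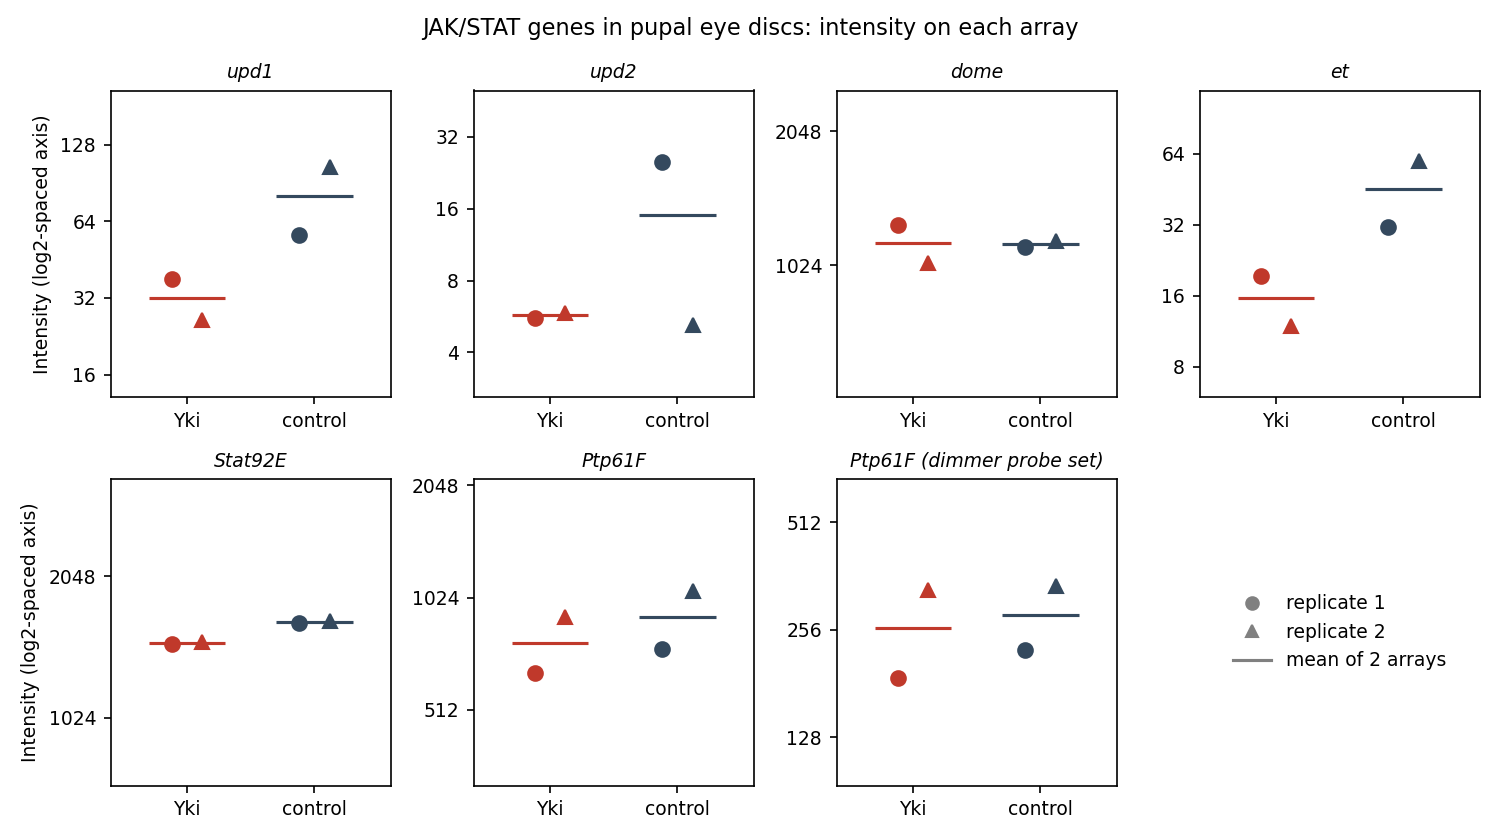
Intensity on each array for the 7 probe sets of the 6 JAK/STAT genes, on a log2-spaced axis with a range of its own in each panel. Points are single arrays, circles for replicate 1 and triangles for replicate 2, and lines are means of 2 arrays. Yki arrays lie below both control arrays for upd1, et and Stat92E, and the groups overlap for upd2, dome and both Ptp61F probe sets.

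Among the ligands, upd1, the founding Unpaired gene, had intensities of 37.9 and 26.1 in Yki discs, against 56.5 and 104 in control discs. Both Yki arrays lay below both control arrays, and the highest value came from a single control array. The group means were 32.0 ± 8.36 in Yki discs and 80.4 ± 33.8 in control discs (SD, n = 2 each). The log2 difference was -0.97 (SE 0.34, 95% interval -1.84 to -0.11), with an unadjusted limma p of 0.0341 and an adjusted p of 0.342. Replicates of 1 group differed from each other by 0.36 on the log2 scale in Yki discs and by 0.73 in control discs, so the difference between groups was larger than both. Arrays with the same replicate number gave -0.43 for replicate 1 and -1.52 for replicate 2. The size thus varied between the pairs by more than the smaller of the 2 differences, and without control replicate 2 it was -0.61, with an unadjusted p of 0.155. With 2 arrays a group, the smallest p that an exact two-sided permutation test could return is 0.333.

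The second ligand gene, upd2, had intensities of 5.58 and 5.86 in Yki discs, against 25.0 and 5.19 in control discs. The groups overlapped, and only 1 control array stood above the rest. The log2 difference of -0.44 (SE 0.37, 95% interval -1.39 to 0.51, adjusted p 0.680) rested on that array. Without control replicate 1 it was 0.04, and without control replicate 2 it was -0.92, with an unadjusted limma p of 0.0413. All 4 values are dim, so a transcript change in upd2 could not be followed at this signal. In the RefSeq gene table upd1, upd2 and another ligand gene, upd3, lie close together on 1 chromosome, with 5 annotated genes between upd1 and upd2, upd3 among them. upd3 was not analysed here.

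Among the receptors, dome, the signalling receptor, had intensities of 1263 and 1035 in Yki discs and 1123 and 1160 in control discs. The 2 Yki arrays lay on either side of the control arrays. Means were 1149 ± 161 in Yki discs and 1141 ± 25.6 in control discs (SD, n = 2 each), a log2 difference of 0.00 (SE 0.24, adjusted p 0.997). The 95% interval ran from -0.60 to 0.61, which covers ratios of Yki to control from 0.658 to 1.53. A change within those bounds would not have been seen with these arrays. The sign of so small a difference turned when array medians were subtracted (-0.03) or when control replicate 1 (-0.02) or Yki replicate 1 (-0.14) was left out.

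et, whose product resembles Domeless and dampens its signalling, had intensities of 19.3 and 11.9 in Yki discs, against 31.2 and 59.3 in control discs. All values were dim, and both Yki arrays lay below both control arrays. Means were 15.6 ± 5.24 in Yki discs and 45.2 ± 19.9 in control discs (SD, n = 2 each). The log2 difference was -0.93 (SE 0.32, 95% interval -1.76 to -0.10), with an unadjusted limma p of 0.0349 and an adjusted p of 0.345. It was -0.42 between the replicate 1 arrays and -1.43 between the replicate 2 arrays, and without control replicate 2 it was -0.59, with an unadjusted p of 0.161. et and dome are next to each other in the RefSeq gene table, with 0 annotated genes between them. These neighbours thus had fitted differences of -0.93 and 0.00, and whether they differed from each other was not tested.

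**Figure D2:**
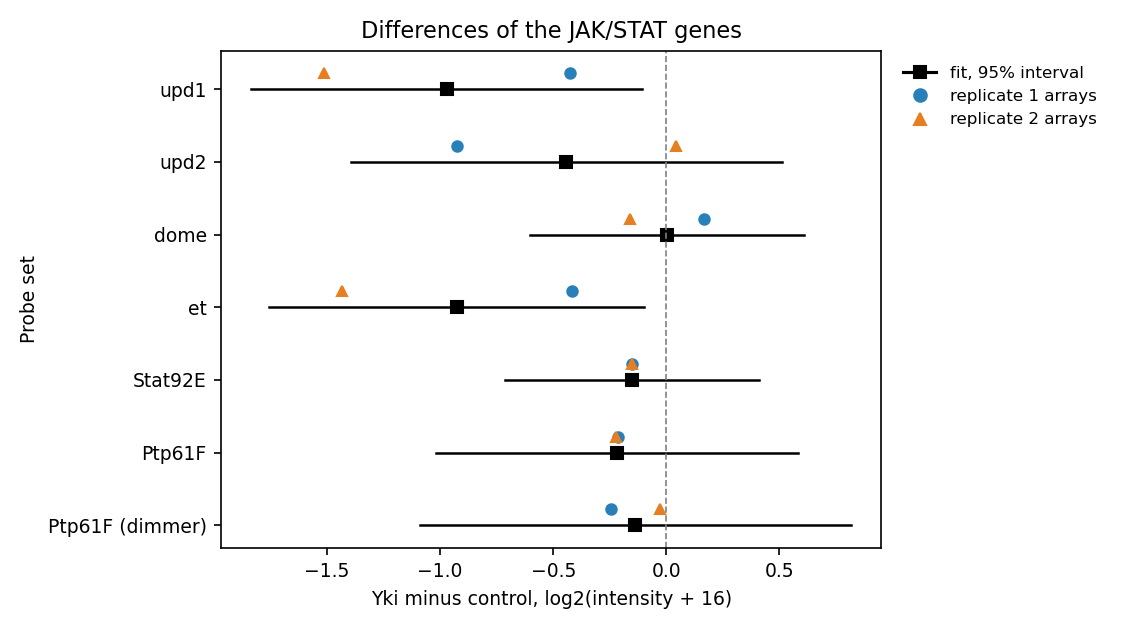
Yki minus control difference of each probe set on the log2(intensity + 16) scale. Squares with lines are the limma estimates with their 95% intervals, circles are the difference between the replicate 1 arrays and triangles that between the replicate 2 arrays. The intervals of upd1 and et lie below 0 and the other 5 include it.

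Stat92E, the only STAT protein gene of the fly, had intensities of 1469 and 1481 in Yki discs, against 1631 and 1647 in control discs. Both Yki arrays were lower, and the arrays of a group were almost equal. Means were 1475 ± 8.74 in Yki discs and 1639 ± 11.5 in control discs (SD, n = 2 each), and the difference was -0.15 within both replicate numbers. The fit gave a log2 difference of -0.15 (SE 0.22, 95% interval -0.71 to 0.41, adjusted p 0.829). Its SE draws on the spread of all probe sets and is far wider than the gap between these replicates. Groups did not overlap, with Yki lower, for 3 of the 6 genes, upd1, et and Stat92E, and for 21.1% of all probe sets. None of the 6 (0) had non-overlapping groups with Yki higher, against 24.3% of all probe sets. With 6 genes, these counts show only which genes lay where.

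The phosphatase gene Ptp61F, whose product dephosphorylates the pathway's components, was the only one of the 6 with more than 1 probe set. The brighter probe set had intensities of 641 and 910 in Yki discs, against 746 and 1065 in control discs. The dimmer one had 187 and 332 in Yki discs, against 225 and 339 in control discs. On both probe sets the groups overlapped, and in each group the replicate 1 array was the lower. Replicate 2 exceeded replicate 1 on the brighter probe set by 0.50 in Yki discs and 0.50 in control discs on the log2 scale, and on the dimmer one by 0.77 and 0.56. The difference between groups was smaller than that, at -0.22 (SE 0.31, 95% interval -1.02 to 0.58, adjusted p 0.825) on the brighter probe set and -0.14 (SE 0.37, adjusted p 0.922) on the dimmer one. Which Ptp61F transcripts each probe set reads is not given in the sources used here.

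Over the 6 genes, 5 had differences below 0, with a median of -0.33, beside a median of -0.01 over all 11982 named genes, of which 51.0% were below 0. 3 of the 6 genes had a mean over the 4 arrays of at least 64: dome, Stat92E and Ptp61F. The larger differences belonged to the other 3, whose 4-array means are below that limit, although upd1 reached 104 on 1 control array. Across all probe sets, 3.82% had a difference as low as that of upd1 or lower, and 4.15% as low as that of et.

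**Figure D3:**
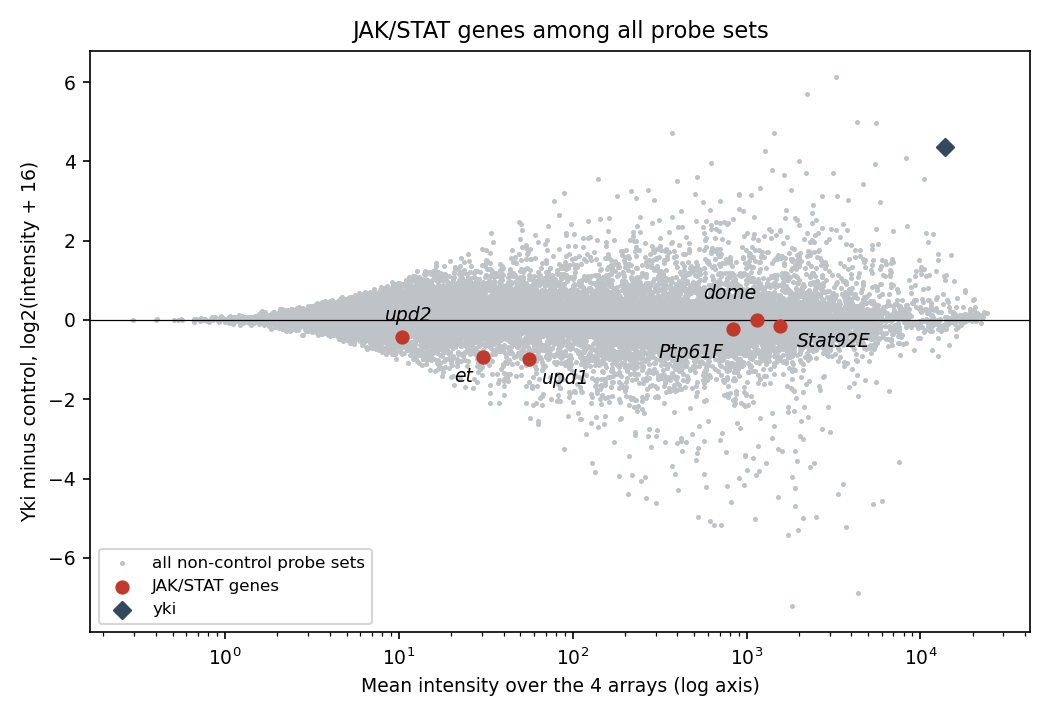
Yki minus control difference on the log2(intensity + 16) scale against mean intensity over the 4 arrays (log axis) for all 18769 non-control probe sets (grey), the 6 JAK/STAT genes (red) and yki (diamond). upd1, et and upd2 sit at the dim end below 0, dome, Stat92E and Ptp61F sit near 0, and yki stands at 4.35.

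upd1 and et had nearly the same profile over the 4 arrays. After each was centred on its own mean, the Euclidean distance between them was 0.06 on the log2 scale, while the other 14 pairs of the 6 genes lay at 0.26 to 1.33. Among 8579 named genes above the dim limit, the nearest to upd1 were Chpf (distance 0.04), CAH1 (0.15) and Pli (0.16), and the nearest to et were Chpf (0.03), Pli (0.12) and tefu (0.13). Chpf had intensities of 247 and 195 in Yki discs, against 336 and 561 in control discs, so control replicate 2 was the highest array for it too. With only 4 arrays many genes can match a profile closely, and these are descriptions of the arrays.

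The 4 genes listed for antenna and head moved the same way as upd1 and et. These genes are not particular to that tissue and are used in the eye too, so their values do not give the amount of antenna or head tissue. All 4 of the list, Dll, ss, ato and salm, were lower in Yki discs with an unadjusted limma p under 0.05. Their groups did not overlap, and 0 passed the adjusted test. Of all probe sets, 6.31% had such a p with lower values and 6.86% with higher values. Groups did not overlap, with Yki lower, for 21.1% of all probe sets. The summed intensity of the 4 was 833 and 675 in Yki discs, against 1670 and 2425 in control discs. Control replicate 2 was highest in this sum, but for ss it lay below control replicate 1, at 221 against 234. None of the 4 was dim over the arrays. Muscle markers went the other way, with 3 of 3 measured genes higher and 2 of them at an unadjusted p under 0.05, and a summed intensity of 4656 and 7121 in Yki discs, against 2005 and 2653 in control discs. The fat body list lay below 0 for 4 of 4 measured genes (median -0.25), 0 of them at an unadjusted p under 0.05 and 1, Fbp1, with groups that did not overlap. Of the lists named for retinal cell types, photoreceptor neuron markers lay above 0 for 5 of 5 genes (median 0.74, 2 at an unadjusted p under 0.05). Pigment cell markers lay above 0 for 4 of 5 (median 0.89, 2 at an unadjusted p under 0.05). Cone cell markers lay above 0 for 1 of 3 (median -0.20), with sv at -1.19 (SE 0.34, unadjusted limma p 0.0177). Glial markers lay above 0 for 2 of 5 genes (median -0.24), with 1 at an unadjusted p under 0.05 in each direction. moody was higher, with 6491 and 7650 in Yki discs, against 2277 and 2699 in control discs (unadjusted limma p 0.00159). gcm was lower, with 110 and 67.0 in Yki discs, against 317 and 173 in control discs (unadjusted limma p 0.0208). The glial sum was 11139 and 10710 in Yki discs, against 6414 and 7843 in control discs. moody weighed most in it, with a 4-array mean of 4779. Of 7 haemocyte markers 3 lay above 0 (NimC1, Col4a1 and vkg) and 4 below (Hml, srp, eater and He). He alone had an unadjusted limma p under 0.05 (-1.48, SE 0.49, p 0.0295). Their sums were 2495 and 3762 in Yki discs and 2281 and 3149 in control discs. Col4a1 and vkg weighed most in these sums, with 4-array means of 1116 and 950. The part of these tissues and cell types in the values of upd1 and et was not tested.

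Other genes tied to the pathway gave 26 measured genes in 3 lists. None of them (0) passed the adjusted test, 1 had an unadjusted limma p under 0.05 with higher values in Yki discs and 5 with lower, against 6.86% and 6.31% of all probe sets. The share below 0 was 76.9%, with a median of -0.25, beside 51.0% and a median of -0.01 over all 11982 named genes.

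Of 13 listed regulators, 12 were measured, and 0 had an unadjusted p under 0.05. Their median difference was -0.16, with 3 above 0 and 9 below. The smallest unadjusted p-values belonged to CycD, the cyclin whose complex with Cdk4 is reported to bind Stat92E, and to RanBP3. CycD had intensities of 348 and 320 in Yki discs, against 459 and 604 in control discs (log2 difference -0.63, SE 0.25, adjusted p 0.385). RanBP3 had 1925 and 1565 in Yki discs, against 2684 and 2312 in control discs (-0.52, SE 0.25, adjusted p 0.459). For both genes the groups did not overlap, with Yki lower, as held for 4 of the 12 measured regulators and 21.1% of all probe sets. The SOCS family genes Socs16D and Socs44A, singled out after their values were seen, had overlapping groups. Socs16D had 667 and 490 in Yki discs, against 372 and 531 in control discs (0.35, SE 0.30, adjusted p 0.686), on its brightest probe set. A dim probe set of the same gene, with a 4-array mean of 23.0, had a difference of -0.10. Socs44A had 615 and 653 in Yki discs, against 660 and 643 in control discs (-0.04, SE 0.22, adjusted p 0.968).

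Of 19 genes listed as responding to JAK/STAT signalling in some fly tissue, 13 were measured. 1 had an unadjusted p under 0.05 with higher values, 4 with lower, and 8 did not reach it, with a median of -0.41. TotF, of the Turandot family of secreted stress peptides, had intensities of 44.3 and 63.3 in Yki discs, against 229 and 255 in control discs. Its log2 difference of -1.90 (SE 0.26) was the largest of the 26, with an unadjusted p of 0.000686 and an adjusted p of 0.131. TotB, of the same family, had 490 and 481 in Yki discs, against 813 and 712 in control discs (-0.63, SE 0.23, adjusted p 0.353). TotZ and TotC, named after their values were seen, were dim over the arrays. TotZ had 49.6 and 65.8 in Yki discs, against 61.2 and 52.3 in control discs (0.01, SE 0.25, adjusted p 0.989), and its groups overlapped. TotC had 1.75 and 1.90 in Yki discs, against 10.5 and 5.12 in control discs (-0.41, SE 0.24, adjusted p 0.545). Its groups did not overlap, with Yki lower, at very low intensities. The Turandot gene best known to depend on JAK/STAT, TotA, was not analysed here.

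dpp, which encodes a BMP-type signal, was the gene with higher values, 945 and 921 in Yki discs, against 290 and 488 in control discs (1.27, SE 0.32, adjusted p 0.239). The homeobox gene mirr, which Unpaired is known to repress in the early eye disc, had 225 and 240 in Yki discs, against 456 and 465 in control discs (-0.94, SE 0.22, adjusted p 0.219). fj, a Golgi kinase gene that responds both to JAK/STAT and to Yorkie in other settings, had 635 and 692 in Yki discs, against 1111 and 1066 in control discs (-0.70, SE 0.22, adjusted p 0.311). For dpp, mirr, fj, TotF and TotB the groups did not overlap. Over the 13 measured genes of the list this held for 1 with Yki higher and 6 with Yki lower, the dim TotC among the 6. Of all probe sets it held for 24.3% and 21.1%. The list mixes genes that the pathway activates with genes that it represses, so its count has no single direction in terms of pathway activity.

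Of the genes listed as acting before unpaired in the eye, eyg alone was measured, 1 of 6. eyg, a Pax family gene that promotes upd1 expression in the young eye disc, had intensities of 84.4 and 110 in Yki discs, against 206 and 203 in control discs. Both Yki arrays were lower, with a log2 difference of -0.97 (SE 0.24, unadjusted p 0.00984, adjusted p 0.239). For eyg the control arrays were nearly equal, and for upd1 they differed by 0.73 on the log2 scale. Whether eyg had a part in the values of upd1 was not tested.

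**Figure D4:**
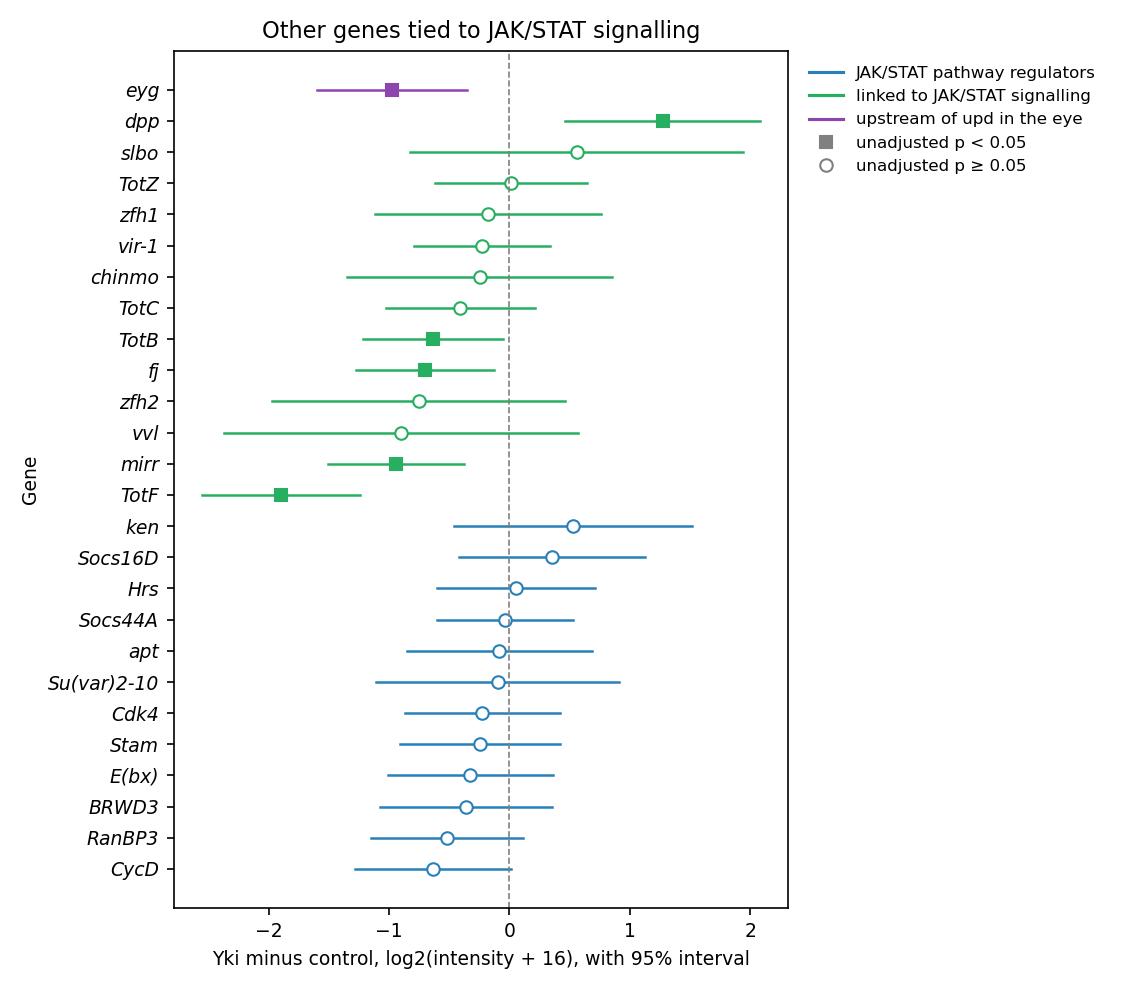
Yki minus control difference with its 95% interval, on the log2(intensity + 16) scale, for the 26 measured genes of the 3 lists. Filled squares have an unadjusted limma p under 0.05 (dpp above 0; eyg, TotF, mirr, fj and TotB below 0) and open circles do not; none passed the adjusted test.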

How the data were processed

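RNA from each sample was labelled as biotinylated cRNA and hybridised to 1 array, per the labels' protocols. The authors deposited linear probe set intensity values, made with Affymetrix Expression Console per the submitters' processing notes. How probes were summarised is not given in the sources used here. Groups and replicate numbers came from the sample titles. All sample columns were used.

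Of 18952 probe sets, 183 controls were left out. Of the rest, 13647 had 1 symbol in the platform annotation (13544 matched to RefSeq, fly Release 6 plus ISO1 MT), 402 several and 4720 are unnamed here. limma 3.58.1 in R 4.3.3 was fitted to log2(intensity + 16) over 18769 probe sets with group as the only term, after a test on simulated data. Benjamini-Hochberg adjustment ran over all of them with a threshold of 0.05. No filter on dim values was used. Moderation added 3.03 to the 2 residual degrees of freedom. P-values set a difference against the spread between these arrays, moderated by that of all probe sets.

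The members and lists were chosen with earlier results of these data known. Every member and yki was named. Up to 6 genes per list were named, by size among those with an unadjusted p under 0.05, or else the 2 with the smallest p. The 3 nearest profiles were named for members with such a p. No sequences or coordinates are given. Alternatives covered the pseudocount, scaling, a filter, moderation, the replicate number, the probe sets of a gene and leaving out each array.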

Additional observations from a re-analysis of the deposited data

How the results depend on the processing

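The 4 arrays and, for upd1, upd2 and et, dim signals limit these results. None of the 6 genes (0) passed the adjusted limma test under any of the 12 alternatives. upd1 and et kept differences below 0 in all 11 that gave them a value, from -1.34 to -0.57 and from -1.45 to -0.45, with an unadjusted p under 0.05 in 6 and 7 of them. Both lost it with a pseudocount of 64 and without control replicate 2, Yki replicate 1 or Yki replicate 2, and upd1 also with trended and robust moderation (p 0.0509).

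The number of the 6 genes with an unadjusted p under 0.05, 2 as reported, was 0 with a pseudocount of 64, 0 when dim probe sets were left out, 1 with trended and robust moderation, and 0 to 2 with 1 array left out. Their median of -0.33 was -0.57 with a pseudocount of 1, -0.19 with 64, -0.15 without dim probe sets, a filter that drops 3 of the genes, and -0.46 to -0.29 with 1 array left out. dome turned to -0.032 with array medians subtracted, and to -0.020 without control replicate 1 and -0.14 without Yki replicate 1 (range -0.14 to 0.14). upd2 turned to 0.035 without control replicate 1 (range -0.92 to 0.035), and Ptp61F to 0.033 without control replicate 2 and 0.028 without Yki replicate 1 (range -0.47 to 0.033).

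yki stayed at 4.37 with a pseudocount of 1 (adjusted p 0.232) and at 4.34 to 4.37 with 1 array left out (adjusted p 0.138 to 0.372), so its call was lost there. Of all probe sets 3 passed, against 0 with a pseudocount of 1, 874 with array medians subtracted, 12 with quantile normalization, 66 without dim probe sets, 20 with trended and robust moderation, and 0 with any array left out (0 to 0). Of the 26 other genes 1, TotF, passed with array medians subtracted (log2 difference -1.93, adjusted p 0.000296) and 0 otherwise. Where the cause is not stated, it was not tested.

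Replicate numbers are not said to mark a shared batch, and the deviations of same-numbered arrays correlated at 0.039 over all probe sets. With the replicate block 27 probe sets passed, and for upd1 and et, at -0.97 and -0.93, the adjusted p was 0.367 and 0.373.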
